A study of Mus musculus with 6 samples.

Results

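The libraries labelled 4-OHT were compared with those labelled EtOH at day 6, gene by gene, in 4 of the 6 samples of the series. The rule for the samples was the day in their labels. The rule and the gene lists were chosen with earlier results of these data known. All 6 came from organoids of mouse small intestine, that is, crypt epithelium kept in culture. Their genotype combined Villin-CreERT2 and Lgr5-EGFP-IRES-CreERT2 with the floxed allele Ythdf2fl/fl on both chromosomes. Cells positive for Lgr5-GFP, which marks intestinal stem cells, were sorted after treatment and their polyadenylated RNA was sequenced. The day 6 groups were 2 libraries given EtOH (ethanol, the vehicle) and 2 labelled 4-OHT (4-hydroxytamoxifen, 0.5 µM), and the day 4 pair, 1 library of each, was used only as a check. Both CreERT2 genes, the GFP allele and the floxed Ythdf2 alleles were carried by every library, EtOH included. The villin promoter is active in the whole intestinal epithelium, not in stem cells alone. No group lacked Cre or the floxed alleles, so effects of 4-OHT, of CreERT2 activity and of the floxed gene cannot be told apart by this design. The labels do not say whether the 2 libraries of a group came from separate cultures or animals, and p-values measure only the spread between these libraries.

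Ythdf2, the gene that Cre is meant to inactivate, was higher in the libraries labelled 4-OHT. It stood at 82.3 and 75.4 CPM in the EtOH libraries and at 206 and 202 CPM in those labelled 4-OHT, where CPM is the gene's count scaled for library size by TMM. On the log2 scale the difference was 1.37 ± 0.16 (SE, as for all values given with ±), with an adjusted p of 0.0018 in edgeR's quasi-likelihood test (Benjamini-Hochberg). The count covers the whole gene (chr4:131911065-131939614, mm39), and the labels do not give the part between the loxP sites, so it neither shows nor tests the deletion. Because this gene goes against the label, every direction below is that of the libraries as labelled.

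The day 6 libraries held 17197322 to 21461835 gene counts, so that 1 CPM corresponds to 17 to 22 counts. The first principal component of the 4 libraries held 51.4% of the variance and placed the EtOH libraries at -44.7 and -21.0 and those labelled 4-OHT at 30.3 and 35.4, with EtOH library 1 the farthest out. The second held 31.0% and separated both libraries 1 (22.8 and 28.0) from both libraries 2 (-35.0 and -15.8). Lgr5 itself stood at 249 and 342 CPM (EtOH) and 207 and 225 CPM (labelled 4-OHT), and its adjusted p was 0.413. The summed level of 12 stem cell markers was 6552 to 6899 CPM in EtOH and 4471 to 4747 CPM in the libraries labelled 4-OHT. Of the 12 only Olfm4 was called (lower), 4 had a log2 fold change above 0, and without Olfm4 the sums were 3615 and 4327 CPM against 3440 and 3496 CPM. The sum over 12 enterocyte markers was 1737 to 1888 CPM and 4063 to 5063 CPM, and 9 of the 12 were called higher. Goblet cell markers summed to 3459 to 3545 CPM and 2656 to 2930 CPM (2 of 10 called, both higher), Paneth cell markers to 2214 to 3073 and 2251 to 5422 CPM, and enteroendocrine markers to 419.2 to 503.2 and 405.5 to 766.8 CPM. Tuft cell markers summed to 22.13 to 41.0 CPM and 10.45 to 12.48 CPM. Immune markers summed to at most 10.56 CPM, mesenchymal markers to at most 4.243 CPM and endothelial markers to at most 0.691 CPM, with Ptprc, Cd3d, Col3a1, Dcn, Kdr and Cdh5 at 0 counts in all 4 libraries. The part that the shift in enterocyte, stem cell and tuft cell markers plays in the gene differences below was not tested. In RNA from a pool of cells, fewer cells of a type and less RNA per cell cannot be told apart.

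In the intestinal epithelium, stem cells at the crypt base divide and their progeny move upward while they take up a secretory or an absorptive fate. Absorptive enterocytes carry a brush border of actin-filled microvilli with hydrolases and transporters, and they assemble dietary fat into lipoproteins. YTHDF2 is a cytoplasmic protein that binds messenger RNA carrying N6-methyladenosine and promotes its decay.

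Of 14066 genes tested, 353 passed an adjusted p of 0.05 (2.51%) and are called below. Higher in the libraries labelled 4-OHT were 320 of them (2.27%), with a median log2 fold change of 1.90. The other 33 (0.235%) were lower, with a median of -1.55. Over all genes tested the median was -0.013, and 48.2% of them had a value above 0. The counts of calls in the lists below are to be read against the 2.51% of all genes. The share called ran from 0% for glycolysis to 36.4% for annexins and S100 proteins. Of all list members tested 10% were called, but the lists were chosen with earlier results of these data known, so this is no test. For every called gene the values of the 2 groups did not overlap, as was the case for 38.9% of all genes tested. With EtOH library 1 left out the count was 145, with 131 higher and 14 lower, and 89 of the 169 called genes that the rule for named genes picked did not pass. Of these 89, 76 kept a fold within 1.5 times of the value from all 4 libraries. Each such fit leaves 1 library in a group, which is assumed to vary like the pair of the other group. Paragraphs therefore end with the lists whose count of calls moved by more than 1.5 times in such a fit, by DESeq2 or with day 4 added and a term for day, or whose median changed sign when a library was left out. They also give the genes whose call ended, or whose fold moved by more than 1.5 times, when a single library was left out, with the log2 fold change of the remaining 3.

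**Figure D1:**
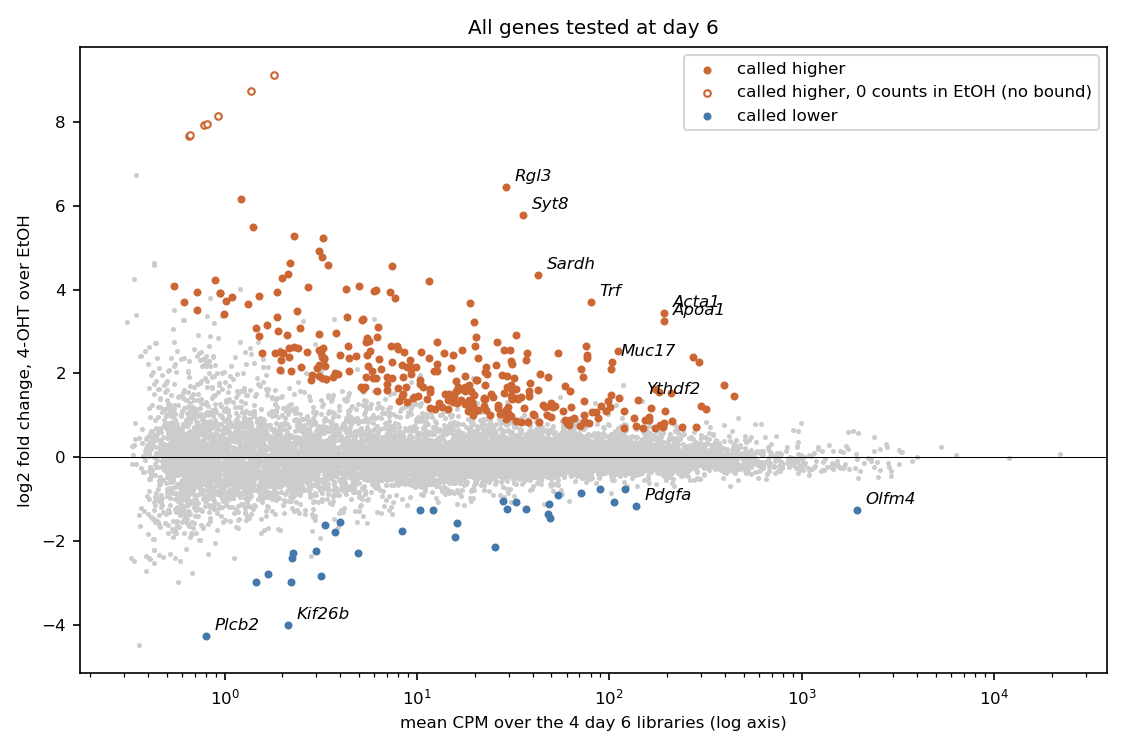
Each point is a gene tested at day 6, with its mean CPM over the 4 libraries on a log axis and its log2 fold change (libraries labelled 4-OHT over EtOH) on the other. Filled orange points are called higher, blue points called lower and grey points not called; open points are called genes with 0 counts in both EtOH libraries, whose fitted value is no bound. Rgl3 at 6.44 and Syt8 at 5.78 stand above the other genes of like level, and Olfm4 at -1.27 is the most abundant called gene.

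The 30 largest rises among protein-coding genes averaging 5 CPM or more ran from 2.58 to 6.44 on the log2 scale, and 24 of them were called under every alternative that tested them. Rgl3 (chr9:21880007-21900777, mm39), which encodes a guanine nucleotide exchange factor for the GTPase Ral, stood at 0.737 and 0.575 CPM in EtOH and at 49.3 and 65.9 CPM in the libraries labelled 4-OHT. It rose by 6.44 ± 0.31 (adjusted p = 1.11e-05). Syt8 (chr7:141988587-141994133), a member of the synaptotagmin family of vesicle fusion proteins, went from 0.684 and 1.90 CPM to 58.0 and 82.1 CPM, a log2 fold change of 5.78 ± 0.38. Both genes were close to absent in EtOH and well expressed in each library with the other label. Trf, the iron carrier transferrin, had 12.1 and 10.8 CPM in EtOH and 147 and 150 CPM in the others (3.70 ± 0.18). Acta1, skeletal muscle actin, had 33.1 and 32.1 CPM against 397 and 309 CPM (3.44 ± 0.19). Msln, the surface glycoprotein mesothelin, had 2.79 and 2.64 CPM against 40.3 and 29.6 CPM (3.68 ± 0.28). No list holds more than 1 of these 5 genes, and the replicates of Trf, Acta1 and Msln lay close together. Tesc, a calcium-binding regulator of the sodium/proton exchanger, rose by 3.94 ± 0.35, Proz, protein Z of the coagulation system, by 3.11 ± 0.34, and Npl, which breaks down sialic acid, by 2.66 ± 0.32. Further rises were Exoc3l4 (2.75), Slc25a45, a mitochondrial carrier (2.87), and Zfp92, a zinc finger gene (3.81). Rnf150, a ring finger gene, rose by 2.58 ± 0.43 and Adora2b, the adenosine A2B receptor, by 3.98 ± 0.54. Clca4a, of the family of calcium-activated chloride channel regulators, rose by 4.55 ± 0.64, and 11.1% of its exon bases overlap another gene. Ifit1bl1, of the interferon-induced Ifit family, rose by 3.27 ± 0.45. Rnf150 (2.24), Adora2b (3.31) and Clca4a (5.34) did not pass without EtOH library 1. Syt8 was at 6.66, Adora2b was at 5.15 and Ifit1bl1 was at 4.14 without EtOH library 2. Clca4a was at 3.52 without 4-OHT library 1. Zfp92 was at 3.1, Rnf150 was at 1.99 and Clca4a was at 5.14 without 4-OHT library 2.

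Among the sugar transporters 2 of 13 tested were called, both higher, and the list's median was 0.48 against -0.013 for all genes. Slc2a2, the basolateral glucose carrier GLUT2, stood at 13.1 and 14.8 CPM in EtOH and 54.2 and 35.1 CPM in the libraries labelled 4-OHT (1.68 ± 0.25, adjusted p = 0.00594). Slc2a5, the apical fructose carrier GLUT5, had 9.74 and 11 CPM against 28.4 and 21.7 CPM (1.27 ± 0.24). Slc5a1, the apical sodium-glucose cotransporter SGLT1, did not pass. It had 250 and 370 CPM against 419 and 401 CPM, a difference of 0.40 ± 0.20 (adjusted p = 0.563). Sugar transport had 0 calls without EtOH library 1. Slc2a2 (1.59) and Slc2a5 (1.18) did not pass without EtOH library 1. Slc2a5 (1.07) did not pass without 4-OHT library 1.

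Carriers for peptides and amino acids showed 5 of 29 called, all higher, with a list median of 0.15. Slc15a1, the proton-coupled carrier PEPT1 that takes up di- and tripeptides, had 1.11 and 1.78 CPM in EtOH and 12.6 and 7 CPM in the libraries labelled 4-OHT (2.78 ± 0.43). For Slc6a19, the apical carrier of neutral amino acids, the levels were 17.7 and 10.9 CPM against 60.8 and 33.7 CPM (1.72 ± 0.31). Slc7a9, the light chain of the apical cystine and basic amino acid exchanger, had 9.37 and 9.66 CPM against 29.5 and 27.5 CPM (1.58 ± 0.22). The 2 groups did not overlap in any of these genes, as in every called gene and in 38.9% of all genes tested. Slc38a3, a glutamine carrier, had 2 counts over both EtOH libraries and 65 and 47 counts in the others, a ratio of 50.3 (95% exact interval 13.6 to 420, counting error only). Peptide and amino acid carriers had 1 call without EtOH library 1. Slc15a1 (2.46), Slc6a19 (2.11) and Slc38a3 (4.5) did not pass without EtOH library 1. Slc6a19 (1.42) did not pass without EtOH library 2. Slc38a3 passed without EtOH library 2, with 0 EtOH counts left and so no bound on the fold.

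Ion and water transport had 8 of 44 members called, all higher, with a median of 0.24. Slc9a3, the sodium/proton exchanger NHE3 of the brush border, had 6.47 and 8.10 CPM in EtOH and 25.2 and 16.3 CPM in the libraries labelled 4-OHT (1.51 ± 0.29). The calcium-activated chloride channel gene Ano1 had 5.63 and 12.8 CPM against 42.8 and 41.5 CPM (2.20 ± 0.32). Aqp3, a water and glycerol channel, had 0.158 and 0.172 CPM against 4.93 and 3.50 CPM (4.63 ± 0.60). Apical and basolateral proteins are both found among these genes. Car4, a membrane-bound carbonic anhydrase, had 0 counts in both EtOH libraries and 33 and 21 counts in the others, which is at least 16.2-fold higher against a floor of 3 counts over the EtOH group. Slc13a2, a carrier of dicarboxylates and of citrate, rose by 2.07 ± 0.46. However, 50.1% of its exon bases overlap an antisense gene, and the strand setting of the counting is not given in the sources used here. The ion and water list had 4 calls without EtOH library 1. Slc9a3 (1.36), Car4 and Slc13a2 (2.62) did not pass without EtOH library 1. Car4 and Slc13a2 (1.69) did not pass without EtOH library 2. Slc9a3 (1.17) and Slc13a2 (2.04) did not pass without 4-OHT library 1. Ano1 was at 2.9 without EtOH library 2.

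In the list for metals and vitamins 1 of 37 members was called (2.7%, against 2.51% of all genes), with a median of 0.13. It was Slc40a1, the iron exporter ferroportin of the basolateral membrane. Its levels were 11.3 and 23.6 CPM in EtOH and 55.1 and 84.1 CPM in the libraries labelled 4-OHT (2.0 ± 0.33). Slc11a2, the apical iron importer DMT1, had 129 and 133 CPM against 159 and 231 CPM and did not pass (0.57 ± 0.19, adjusted p = 0.246). The metal and vitamin list had 0 calls without EtOH library 1, 4 without EtOH library 2, 2 without 4-OHT library 1, 2 without 4-OHT library 2, 2 by DESeq2 and 3 with the day term. Slc40a1 (1.56) did not pass without EtOH library 1. Slc40a1 was at 2.62 without EtOH library 2.

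Bile acid and organic anion handling had 4 of 28 called, all higher, and a median of 0.59. Slc10a2, the apical sodium-dependent bile acid carrier, had 0.737 and 0.632 CPM in EtOH and 5.71 and 2.60 CPM in the libraries labelled 4-OHT (2.60 ± 0.54). Slc51a, a subunit of the basolateral bile acid exporter, had 5.26 and 5.17 CPM against 16.3 and 11.6 CPM (1.42 ± 0.29). Fgf15, the hormone that ileal enterocytes release in response to bile acids, had 0.421 and 0.172 CPM against 6.73 and 3.55 CPM (4.07 ± 0.60). Uptake, export and hormone genes were thus each among the calls, and their groups did not overlap, as in every called gene. Slc16a5, a monocarboxylate carrier, rose by 1.35 ± 0.23. Of the exon bases of Slc51a 25.2% and of Fgf15 25.7% overlap another gene. Bile acid and anion genes had 0 calls without EtOH library 1, 2 without 4-OHT library 1 and 8 with the day term. Slc10a2 (2.71), Slc51a (1.43), Fgf15 (4.85) and Slc16a5 (1.34) did not pass without EtOH library 1. Slc10a2 (2.5) and Slc51a (1.4) did not pass without EtOH library 2. Slc10a2 (1.91) and Slc51a (1.15) did not pass without 4-OHT library 1.

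**Figure D2:**
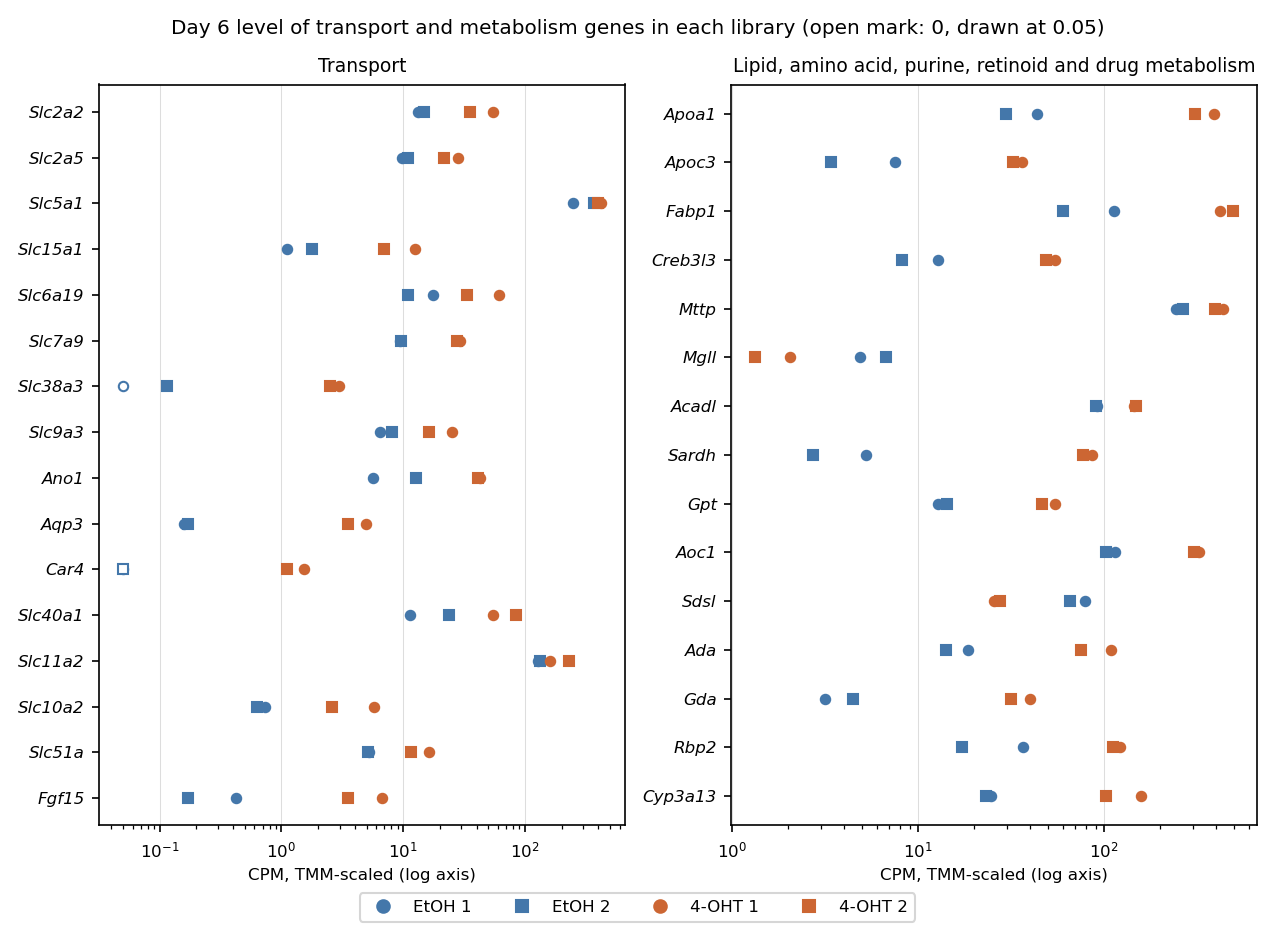
Each row is a gene and each mark a day 6 library (blue EtOH, orange labelled 4-OHT, circle library 1, square library 2), with its TMM-scaled CPM on a log axis; open marks are 0 counts, drawn at 0.05. Both orange marks lie to the right of both blue marks for all genes drawn except Mgll and Sdsl, where they lie to the left; Slc5a1, Slc11a2 and Mttp are drawn although they did not pass the test.

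Over all 262 solute carrier genes tested, 22 were higher and 2 were lower, and the family median was 0.11. Beside those above, the largest rises included Slc4a11, a membrane carrier of the bicarbonate family (2.91 ± 0.52), and Slc47a1, the organic cation exporter MATE1 (3.65 ± 0.76), which rested on few EtOH reads. The 2 members that fell are described with the lower genes. ATP-driven pumps of the P and V types, with 44 genes tested, had no call (0 by edgeR, 5 at an unadjusted p under 0.05, and a median of 0.11). Among 30 ABC transporters Abcg5 was called, a sterol exporter of the apical membrane, with 6.42 and 8.33 CPM in EtOH and 28.9 and 27.8 CPM in the others (1.94 ± 0.24). The solute carriers had 4 calls without EtOH library 1. ABC transporters had 3 calls without EtOH library 2, 2 without 4-OHT library 2, 3 by DESeq2 and 4 with the day term. The pumps had 1 call without EtOH library 2, 1 without 4-OHT library 2 and 1 with the day term. Slc4a11 (3.41) and Slc47a1 (0 EtOH counts left) did not pass without EtOH library 1. Slc4a11 (2.55) and Slc47a1 (2.73) did not pass without EtOH library 2.

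Lipid absorption and lipoprotein assembly had a median of 0.70. Of its 42 members tested 11 were higher and 1 was lower. Apoa1, the main protein of high-density lipoprotein, had 43.4 and 29.8 CPM in EtOH and 392 and 307 CPM in the libraries labelled 4-OHT (3.25 ± 0.23, adjusted p = 9.99e-05). Apoc3, which slows the breakdown of triglyceride-rich particles, had 7.53 and 3.39 CPM against 36.3 and 32.5 CPM (2.65 ± 0.33). Fabp1, a fatty acid binding protein of the cytosol, had 113 and 60.4 CPM against 418 and 494 CPM (2.39 ± 0.27). The groups did not overlap in these genes, which holds for every called gene and for 38.9% of all genes tested. Creb3l3, a membrane-bound transcription factor that acts on apolipoprotein genes, had 12.7 and 8.22 CPM against 54.1 and 48.7 CPM (2.29 ± 0.24). Mttp, which loads lipid onto apolipoprotein B, had 242 and 267 CPM against 438 and 396 CPM and missed the threshold (0.71 ± 0.16, adjusted p = 0.0522). The member that fell was Mgll, monoacylglycerol lipase, which splits monoacylglycerol rather than packing it. It had 4.89 and 6.72 CPM against 2.03 and 1.33 CPM (-1.77 ± 0.39). Apoa1 and Fabp1 are also among the enterocyte markers, whose summed level is given above. Mgll (-1.99) did not pass without EtOH library 1. Mgll (-1.53) did not pass without EtOH library 2. Mgll (-1.51) did not pass without 4-OHT library 2. Apoc3 was at 3.34 without EtOH library 1.

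Fatty acid oxidation and ketone body synthesis had 3 of 40 called, all higher, with a median of 0.29. Acaa1b, a peroxisomal thiolase, had 3.21 and 4.31 CPM in EtOH and 15.8 and 13.8 CPM in the libraries labelled 4-OHT (1.98 ± 0.29). Acadl, a mitochondrial acyl-CoA dehydrogenase, had 91.4 and 90.9 CPM against 145 and 149 CPM (0.69 ± 0.15, adjusted p = 0.0483). Cpt1a, which controls the entry of fatty acids into mitochondria, had 112 and 140 CPM against 155 and 160 CPM and did not pass (0.32 ± 0.17, adjusted p = 0.589). The list for cholesterol synthesis and uptake went the other way in its median (-0.30), with 33 of 36 members below 0. Only 1 member was called (2.78%, against 2.51% of all genes). That was Tm7sf2, a sterol reductase, at 106 and 77.1 CPM against 49.5 and 51.4 CPM (-0.86 ± 0.19, adjusted p = 0.047). Fatty acid oxidation genes had 1 call without EtOH library 1, 5 without EtOH library 2, 1 without 4-OHT library 1, 7 by DESeq2 and 5 with the day term. Cholesterol genes had 0 calls without EtOH library 1, 6 without EtOH library 2, 0 without 4-OHT library 1, 0 without 4-OHT library 2, 3 by DESeq2 and 2 with the day term. Acaa1b (1.78), Acadl (0.69) and Tm7sf2 (-0.61) did not pass without EtOH library 1. Acadl (0.7) and Tm7sf2 (-0.83) did not pass without 4-OHT library 1. Acadl (0.68) and Tm7sf2 (-0.88) did not pass without 4-OHT library 2.

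Sugar breakdown and synthesis gave no calls by edgeR. Of 25 glycolysis genes 3 had an unadjusted p under 0.05, and the median was 0.07. Hk2, a hexokinase, had 147 and 166 CPM in EtOH and 121 and 171 CPM in the libraries labelled 4-OHT, which overlap. Of 20 genes of gluconeogenesis and fructose metabolism 5 had an unadjusted p under 0.05, with a median of 0.14. Pck1 had 1.21 and 2.53 CPM against 2.99 and 3.13 CPM (0.72 ± 0.44, adjusted p = 0.679). Glycolysis had 2 calls without 4-OHT library 1, 1 by DESeq2 and 1 with the day term, and the median ran from -0.11 to 0.23 with single libraries left out. Gluconeogenesis and fructose genes had 1 call without EtOH library 2, 1 without 4-OHT library 2, 4 by DESeq2 and 4 with the day term.

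Amino acid, one-carbon and polyamine enzymes had 4 members called higher and 2 lower out of 55, with a median of -0.01, close to that of all genes. Sardh (chr2:27078405-27143451), the mitochondrial enzyme that turns sarcosine into glycine, had 5.26 and 2.70 CPM in EtOH and 86.4 and 77.1 CPM in the libraries labelled 4-OHT (4.35 ± 0.29, adjusted p = 8.48e-05). Aoc1, which oxidises histamine and diamines, had 114 and 102 CPM against 322 and 303 CPM (1.54 ± 0.16). Gpt, the cytosolic alanine aminotransferase, had 12.7 and 14.3 CPM against 54.1 and 46.3 CPM (1.90 ± 0.20), with 22.7% of its exon bases shared with another gene. Sarcosine, diamine and alanine metabolism were each represented by a rise of more than 2-fold. Hpd, of tyrosine breakdown, rose by 1.11 ± 0.23. The 2 that fell act on serine and homocysteine. Sdsl, a serine dehydratase-like enzyme, had 78.9 and 65.7 CPM against 25.7 and 27.6 CPM (-1.44 ± 0.18). Cbs, which joins serine and homocysteine to form cystathionine, had 16.1 and 13.3 CPM against 5.67 and 6.58 CPM (-1.27 ± 0.27). Mat2a, which makes S-adenosylmethionine, had 150 and 139 CPM against 176 and 103 CPM and did not pass (-0.05 ± 0.23). Amino acid and polyamine enzymes had a median that ran from -0.10 to 0.04 with single libraries left out. Hpd (1.23) and Cbs (-1.12) did not pass without EtOH library 1. Hpd (1.01) did not pass without EtOH library 2. Hpd (0.99) and Cbs (-1.16) did not pass without 4-OHT library 1. Cbs (-1.37) did not pass without 4-OHT library 2.

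Purine and nucleotide enzymes had 7 of 47 called, all higher, and a median of 0.15. Ada, adenosine deaminase, had 18.5 and 14.1 CPM in EtOH and 109 and 74.8 CPM in the libraries labelled 4-OHT (2.49 ± 0.23), with 20.2% of its exon bases shared with another gene. Gda, guanine deaminase, had 3.16 and 4.48 CPM against 39.9 and 31.5 CPM (3.23 ± 0.27). Enpp3, an ectoenzyme that cleaves extracellular nucleotides, had 1.11 and 1.26 CPM against 27.8 and 16.3 CPM (4.21 ± 0.38). These enzymes remove amino groups from purines or act on nucleotides outside the cell. Enpp7, which despite its family name splits sphingomyelin at the brush border, had 0 counts in both EtOH libraries and 76 and 37 in the others, at least 33.8-fold higher against the floor of 3 counts over the group. Enpp7 did not pass without EtOH library 1.

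Retinoid metabolism had 3 of 27 called, all higher, with a median of 0.16. Rbp2, the cytosolic retinol carrier of enterocytes, had 36.8 and 17.1 CPM in EtOH and 122 and 111 CPM in the libraries labelled 4-OHT (2.11 ± 0.30). Rdh7 (1.51 ± 0.28) and Dhrs9 (3.16 ± 0.54) encode dehydrogenases that act on retinol. Dhrs9 was low, with 0.368 and 0.287 CPM against 3.22 and 2.76 CPM. Drug metabolism and conjugation had 7 of 76 called, all higher, and a median of 0.42, with 64 of the 76 above 0. Cyp3a13, a cytochrome P450 of the intestine, had 24.7 and 23.2 CPM against 157 and 102 CPM (2.44 ± 0.22), with 21.3% of its exon bases shared with another gene. The carboxylesterase genes Ces2b (3.30 ± 0.50) and Ces2c (1.55 ± 0.18) and the epoxide hydrolase gene Ephx2 (1.40 ± 0.19) also rose. Ces2 genes lie in a cluster of similar copies, so reads could be split or lost among them, and 29.0% of the exon bases of Ces2c overlap another gene. Of 35 cytochromes P450 4 were higher, among them Cyp2e1 (2.05 ± 0.41) and the fatty acid hydroxylase gene Cyp4f14 (0.94 ± 0.19). For Cyp2e1 1 library stood out, with 5.11 and 4.83 CPM against 29.5 and 11.5 CPM. Other conjugating and oxidising enzymes that rose were Sult6b2 (2.16 ± 0.31), Gsta13 (1.46 ± 0.23), Aldh3b1 (2.74 ± 0.27) and the steroid dehydrogenase gene Hsd17b2 (2.07 ± 0.25). In the glutathione and oxidative stress list 2 of 35 were called, with a median of 0.18. They were Ggt1, which splits extracellular glutathione (9.11 and 8.74 CPM against 30.4 and 42.5 CPM, 2.03 ± 0.24), and Srxn1, which reactivates peroxiredoxins (0.75 ± 0.17, adjusted p = 0.0492). Gclc, of glutathione synthesis, had 85.6 and 140 CPM against 98.4 and 140 CPM (0.08 ± 0.25). Retinoid genes had 6 calls by DESeq2 and 6 with the day term. Drug metabolism genes had 11 calls without EtOH library 1, 16 without 4-OHT library 2, 16 by DESeq2 and 14 with the day term. The cytochromes P450 had 1 call without EtOH library 2, 11 without 4-OHT library 2, 11 by DESeq2 and 9 with the day term. Glutathione genes had 1 call without EtOH library 1 and 5 with the day term. Dhrs9 (3.35), Ces2b (2.91), Cyp2e1 (2.09) and Srxn1 (0.69) did not pass without EtOH library 1. Dhrs9 (3.0), Cyp2e1 (2.01) and Cyp4f14 (0.75) did not pass without EtOH library 2. Cyp2e1 (1.2), Cyp4f14 (0.82) and Srxn1 (0.84) did not pass without 4-OHT library 1. Srxn1 (0.66) did not pass without 4-OHT library 2. Rbp2 was at 2.77 without EtOH library 1. Ces2b was at 2.64 without 4-OHT library 1.

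Digestive hydrolases of the brush border and lumen had 13 of 40 called, all higher, with a median of 0.49. Sis, sucrase-isomaltase, had 199 and 272 CPM in EtOH and 829 and 476 CPM in the libraries labelled 4-OHT (1.47 ± 0.26). Alpi, intestinal alkaline phosphatase, had 94.9 and 106 CPM against 471 and 500 CPM (2.27 ± 0.17, adjusted p = 0.000139). Ctse, the aspartic protease cathepsin E, had 0 and 0.460 CPM against 6.03 and 6.36 CPM. The disaccharidase rose less evenly across libraries than the phosphatase. Prss30, a membrane serine protease, rose by 2.52 ± 0.48. DESeq2 did not call Ctse. The hydrolase list had 5 calls without EtOH library 1. Sis (1.26) and Prss30 (2.84) did not pass without EtOH library 1. Prss30 (2.27) did not pass without EtOH library 2. Ctse was at 3.73 without EtOH library 1. Ctse passed without EtOH library 2, with 0 EtOH counts left and so no bound on the fold.

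The microvillus and actin list had 10 higher and 1 lower of 51 members, with a median of 0.30. Vill, a villin-like protein, had 6 and 8.10 CPM in EtOH and 21.5 and 28.4 CPM in the libraries labelled 4-OHT (1.82 ± 0.27). Pdlim2, which links actin to other proteins, had 1.53 and 2.82 CPM against 11.4 and 15.6 CPM (2.64 ± 0.36). Vil1, villin itself, had 476 and 438 CPM against 662 and 616 CPM and did not pass (0.48 ± 0.17, adjusted p = 0.259). The villin promoter also drives a CreERT2 in all libraries. Pdzk1, a scaffold for brush border transporters, rose by 2.88 ± 0.57, with 43.1% of its exon bases shared with another gene, and the actin-capping gene Capg by 1.45 ± 0.27. Cnn3, an actin-binding calponin, fell from 154 and 148 CPM to 93.8 and 84.5 CPM (-0.76 ± 0.16), and 16.1% of its exon bases are shared. The microvillus genes had 3 calls without EtOH library 1 and 6 without 4-OHT library 2. Pdzk1 (3.5), Capg (1.41) and Cnn3 (-0.73) did not pass without EtOH library 1. Pdzk1 (2.48) and Capg (1.5) did not pass without EtOH library 2. Cnn3 (-0.84) did not pass without 4-OHT library 1. Capg (1.12) and Cnn3 (-0.69) did not pass without 4-OHT library 2.

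Of 34 tight junction genes 3 were higher, with a median of 0.22. Cldn4, a claudin that seals the space between cells, had 106 and 141 CPM in EtOH and 239 and 293 CPM in the libraries labelled 4-OHT (1.11 ± 0.19). Cldn23 had 7.37 and 9.94 CPM against 25.8 and 31.3 CPM (1.72 ± 0.25), and Ildr1, a protein of tricellular junctions, 2.53 and 7.18 CPM against 19.3 and 32.9 CPM (2.43 ± 0.43). The scaffold gene Tjp1 had 89.2 and 170 CPM against 195 and 180 CPM and did not pass (0.53 ± 0.26). Of 74 cadherins, desmosome proteins and other adhesion molecules 7 were higher, with a median of 0.17. Muc17, a membrane mucin of the brush border, had 33.1 and 38.2 CPM against 163 and 179 CPM (2.26 ± 0.17, adjusted p = 0.000152). Tm4sf4, a tetraspanin-like protein, had 31.4 and 33.7 CPM against 243 and 135 CPM (2.54 ± 0.26). Ceacam20, a microvillus glycoprotein, rose by 1.67 ± 0.36. Dsg3, a desmosomal cadherin best known from stratified epithelium, had 0 counts in both EtOH libraries and 35 and 39 in the others, at least 22.1-fold higher against the floor. Cdh1, E-cadherin, had 1052 and 1210 CPM against 1266 and 1332 CPM and did not pass (0.20 ± 0.19). Of 20 tetraspanin and TM4SF genes 3 were higher, Tm4sf4, Tspan4 (1.38 ± 0.27, with 33.1% of its exon bases shared) and Tm4sf1 (4.58 ± 0.65). Tight junction genes had 1 call without EtOH library 1, 8 without EtOH library 2 and 6 with the day term. The adhesion list had 12 calls without EtOH library 2, 11 by DESeq2 and 12 with the day term. Tetraspanins had 5 calls by DESeq2. Cldn4 (0.92), Ildr1 (1.86), Ceacam20 (1.31), Dsg3, Tspan4 (1.26) and Tm4sf1 (5.22) did not pass without EtOH library 1. Tspan4 (1.21) did not pass without 4-OHT library 1. Ceacam20 (1.49) did not pass without 4-OHT library 2. Ildr1 was at 3.36 without EtOH library 2. Tm4sf1 was at 3.84 without 4-OHT library 1.

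Integrins, laminins and matrix proteins had 10 of 62 called, all higher, with a median of 0.25. Lgals3, the secreted lectin galectin-3, had 13.8 and 10.7 CPM in EtOH and 46.4 and 46.9 CPM in the libraries labelled 4-OHT (1.93 ± 0.21). The 3 integrin chains that were higher were Itga3 (0.73 ± 0.15), Itga5 (1.5 ± 0.26) and Itgb5 (1.13 ± 0.20), out of 21 integrin genes tested. Itgb4, the chain of hemidesmosomes, had 140 and 183 CPM against 208 and 189 CPM and did not pass (0.30 ± 0.18). The basement membrane genes Lama3 (3.02 ± 0.59) and Nid1 (4.27 ± 0.80) were low, with Nid1 at 0.368 and 0 CPM against 5.16 and 2.39 CPM. None of 10 collagen genes was called by edgeR (2 at an unadjusted p under 0.05). The matrix list had 3 calls without EtOH library 1. Integrin genes had 0 calls without EtOH library 1 and 0 without 4-OHT library 2, and the median ran from -0.03 to 0.43 with single libraries left out. Itga3 (0.69), Itga5 (1.46), Itgb5 (1.01), Lama3 (2.54) and Nid1 (0 EtOH counts left) did not pass without EtOH library 1. Lama3 (3.65) and Nid1 (3.35) did not pass without EtOH library 2. Itga3 (0.74) did not pass without 4-OHT library 1. Itga3 (0.71), Itga5 (1.23) and Itgb5 (1.08) did not pass without 4-OHT library 2. Nid1 was at 3.59 without 4-OHT library 1.

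Annexins and S100 proteins, which bind calcium and in the case of annexins membranes, had 8 of 22 called, all higher, with a median of 0.68. Of the 12 annexins tested 6 were called and all 12 had a value above 0. Anxa10 had 5.32 and 4.48 CPM in EtOH and 37.0 and 34.8 CPM in the libraries labelled 4-OHT (2.87 ± 0.23). Anxa3 had 21.0 and 34.5 CPM against 81.9 and 97.1 CPM (1.69 ± 0.24), and Anxa1 had 5.16 and 6.72 CPM against 18.2 and 16.9 CPM (1.57 ± 0.26). Anxa8 rested on few reads, with 0 and 0.402 CPM against 3.92 and 1.75 CPM. Among S100 genes S100a6 had 6.42 and 10.4 CPM against 28.8 and 45.7 CPM (2.15 ± 0.30). S100a1 also rose (1.30 ± 0.24), but 89.2% of its exon bases overlap S100a13. Keratins and other intermediate filaments had 5 of 20 called, all higher, with a median of 0.33. Krt20, a keratin of differentiated intestinal epithelium, had 22.4 and 19.3 CPM against 143 and 120 CPM (2.65 ± 0.19, adjusted p = 9.99e-05). Nes, nestin, had 6.05 and 11.7 CPM against 48.3 and 56.0 CPM (2.56 ± 0.29), and Sprr1a, a protein of the cornified envelope, 10.7 and 11.3 CPM against 57.1 and 46.0 CPM (2.23 ± 0.21). Krt23 rose by 1.09 ± 0.18, and Krt7 did not pass, at 253 and 221 CPM against 294 and 285 CPM. Annexins and S100 genes had 2 calls without EtOH library 1 and 5 without 4-OHT library 1. The 12 annexins had 2 calls without EtOH library 1. Anxa1 (1.38), Anxa8 (2.81), S100a6 (1.84) and S100a1 (1.25) did not pass without EtOH library 1. S100a1 (1.3) did not pass without 4-OHT library 1. Anxa8 passed without EtOH library 2, with 0 EtOH counts left and so no bound on the fold. Anxa8 was at 3.14 without 4-OHT library 1.

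Among the intestinal lineage transcription factors 3 of 50 were called, all higher, and the list median was -0.05. Beside Creb3l3 these were Klf4, which is expressed in differentiated epithelium, at 43.7 and 60.6 CPM in EtOH and 96.6 and 125 CPM in the libraries labelled 4-OHT (1.09 ± 0.21), and Maf, at 4.89 and 12.9 CPM against 36.0 and 28.1 CPM (1.85 ± 0.37). Hnf4a, which acts on many enterocyte genes, had 1021 and 1031 CPM against 1043 and 1028 CPM (0.01 ± 0.18, adjusted p = 0.991). The RNA of Hnf4a was thus nearly level in all 4 libraries. Its protein was not measured, and its part in the gene differences was not tested. Of 56 nuclear receptors and metabolic regulators 1 was higher and 1 lower (3.57% called, against 2.51% of all genes), with a median of 0.11. The lower one was Esrrg, an orphan receptor linked to oxidative metabolism, which had 33.7 and 41.7 CPM against 21.3 and 15.3 CPM (-1.04 ± 0.23). Ppara, a fatty acid sensor, had 11.7 and 18.8 CPM against 28.4 and 29.0 CPM and did not pass (0.91 ± 0.25, adjusted p = 0.122). The lineage factors had 1 call without EtOH library 1, 5 without EtOH library 2 and 5 with the day term. Nuclear receptors and regulators had 0 calls without EtOH library 1, 5 without EtOH library 2, 1 without 4-OHT library 1 and 1 without 4-OHT library 2, and the median ran from -0.02 to 0.29 with single libraries left out. Klf4 (0.87), Maf (1.31) and Esrrg (-1.19) did not pass without EtOH library 1. Esrrg (-0.88) did not pass without EtOH library 2. Klf4 (0.89) and Esrrg (-0.82) did not pass without 4-OHT library 2. Maf was at 2.71 without EtOH library 2.

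Of 102 AP-1, Klf, Ets and stress-linked factors 4 were called (3.92%, against 2.51% of all genes), all higher, with a median of 0.06. Tead4, a partner of the Hippo pathway co-activators YAP and TAZ, had 1.0 and 2.07 CPM in EtOH and 7.65 and 8.54 CPM in the libraries labelled 4-OHT (2.41 ± 0.39). Mxd1, an antagonist of Myc, had 16.5 and 18.7 CPM against 61.8 and 57.4 CPM (1.76 ± 0.19). Irf7, of the interferon response, had 5.11 and 3.79 CPM against 19.9 and 22.1 CPM (2.23 ± 0.27), and Klf15 had 1.11 and 1.90 CPM against 5.76 and 6.31 CPM (2.01 ± 0.39). No Fos or Jun gene was among the calls. Fosl1 fell under the count filter and was not tested, with 1 and 8 counts against 8 and 12. Fos had 360 and 346 CPM against 389 and 369 CPM (0.10 ± 0.16, adjusted p = 0.918). Zinc finger genes with symbols starting in Zfp gave 1 call in 345, Zfp92, below the 2.51% of all genes. No gene of the Hox, Fox and Sox families was called among 8, 19 and 6 tested, with 0, 1 and 2 at an unadjusted p under 0.05. The stress-linked factors had 2 calls without EtOH library 1, 9 without 4-OHT library 2 and 7 by DESeq2. Their median ran from -0.00 to 0.10 with single libraries left out. The Zfp genes had 5 calls with the day term. Tead4 (1.96) and Klf15 (1.67) did not pass without EtOH library 1. Tead4 was at 3.01 without EtOH library 2.

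Growth factor ligands and receptors had 5 higher and 1 lower of 58, with a median of 0.19. Areg, a ligand of the epidermal growth factor receptor, had 45.6 and 76.2 CPM in EtOH and 134 and 193 CPM in the libraries labelled 4-OHT (1.42 ± 0.26). Dusp6, a phosphatase that acts on ERK, had 27.2 and 29.3 CPM against 68.6 and 60.5 CPM (1.20 ± 0.18), with 23.0% of its exon bases shared. Egfr, the receptor, had 45.4 and 54.9 CPM against 59.6 and 54.6 CPM and did not pass (0.19 ± 0.18). Bmp8b rose by 1.68 ± 0.36, but 62.7% of its exon bases overlap Ppie. Pdgfa, a ligand of the platelet-derived growth factor receptor, fell from 184 and 199 CPM to 72.8 and 98.0 CPM (-1.17 ± 0.18). Regulators of Ras and other small GTPases had 8 of 84 called, all higher, with a median of 0.11. After Rgl3 came Rasal1, which switches Ras off (1.42 and 2.82 CPM against 10.6 and 10.7 CPM, 2.33 ± 0.36), Rab31 (1.42 ± 0.22) and Rhof (1.84 ± 0.27), of whose exon bases 58.2% overlap Tmem120b. Rgl1, a relative of Rgl3, had 1.53 and 0.632 CPM against 1.01 and 0.265 CPM (-0.72 ± 0.71). Rgl1 did not pass, but it was low in every library and its SE was wide, so it says little beside Rgl3. The exchange factor gene Arhgef40 (1.45 ± 0.21) and Rab11fip4 (1.5 ± 0.28) were also called. Vesicle fusion genes had 3 of 49 called, with a median of 0.09. Beside Syt8 these were Cavin1, a coat protein of caveolae (3.11 and 3.22 CPM against 14.3 and 21.6 CPM, 2.50 ± 0.31), and Mall (1.11 ± 0.18). Growth factor genes had 3 calls without EtOH library 1, 13 without EtOH library 2, 10 by DESeq2 and 10 with the day term. GTPase regulators had 3 calls without EtOH library 1. Areg (1.1), Bmp8b (1.19), Rasal1 (1.91) and Rab11fip4 (1.43) did not pass without EtOH library 1. Pdgfa (-0.97) and Rab11fip4 (1.39) did not pass without 4-OHT library 1. Mall (0.94) did not pass without 4-OHT library 2. Bmp8b was at 2.41 without EtOH library 2.

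Defence proteins of the mucosa had 11 of 40 called, all higher, with a median of 0.65. Tff2, a trefoil peptide, had 0.263 and 1.21 CPM in EtOH and 8.38 and 14.2 CPM in the libraries labelled 4-OHT (3.96 ± 0.53). Ly6d had 0.526 and 0.575 CPM against 9.77 and 9.07 CPM (4.08 ± 0.40), and Ly6m 0.526 and 0.460 CPM against 7 and 9.12 CPM (4.01 ± 0.44), both small surface proteins of the Ly6 family. Zg16, a lectin of goblet cells, had 7.37 and 6.09 CPM against 54.9 and 36.0 CPM (2.75 ± 0.27). Zg16 is itself a goblet cell marker and, with Clca1, 1 of the 2 of 10 such markers called higher, while the sum over the 10 was lower in both libraries labelled 4-OHT. Psca rose by 2.85 ± 0.52 and the protease inhibitor Serpinb1a by 1.19 ± 0.17. Lypd8, which holds bacteria away from the epithelium, had 483 and 523 CPM against 391 and 578 CPM (-0.05 ± 0.20). Cytokines and their receptors had 3 of 70 called (4.29%, against 2.51% of all genes), with a median of 0.18. Il1rn, the interleukin-1 receptor antagonist, had 8.11 and 7.18 CPM against 72.7 and 43.5 CPM (2.93 ± 0.27), Tnfrsf23, a decoy receptor, rose by 1.98 ± 0.36, and Cxcl16 by 1.57 ± 0.32. Of the exon bases of Cxcl16 84.8% overlap Med11. The defence list had 7 calls without EtOH library 1 and 18 without 4-OHT library 2. Cytokines and receptors had 1 call without EtOH library 1, 5 without EtOH library 2 and 6 with the day term. Psca (2.1), Tnfrsf23 (2.11) and Cxcl16 (1.15) did not pass without EtOH library 1. Tnfrsf23 (1.88) did not pass without EtOH library 2. Tff2 was at 3.22 without EtOH library 1. Tff2 was at 5.39 and Psca was at 4.32 without EtOH library 2.

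**Figure D3:**
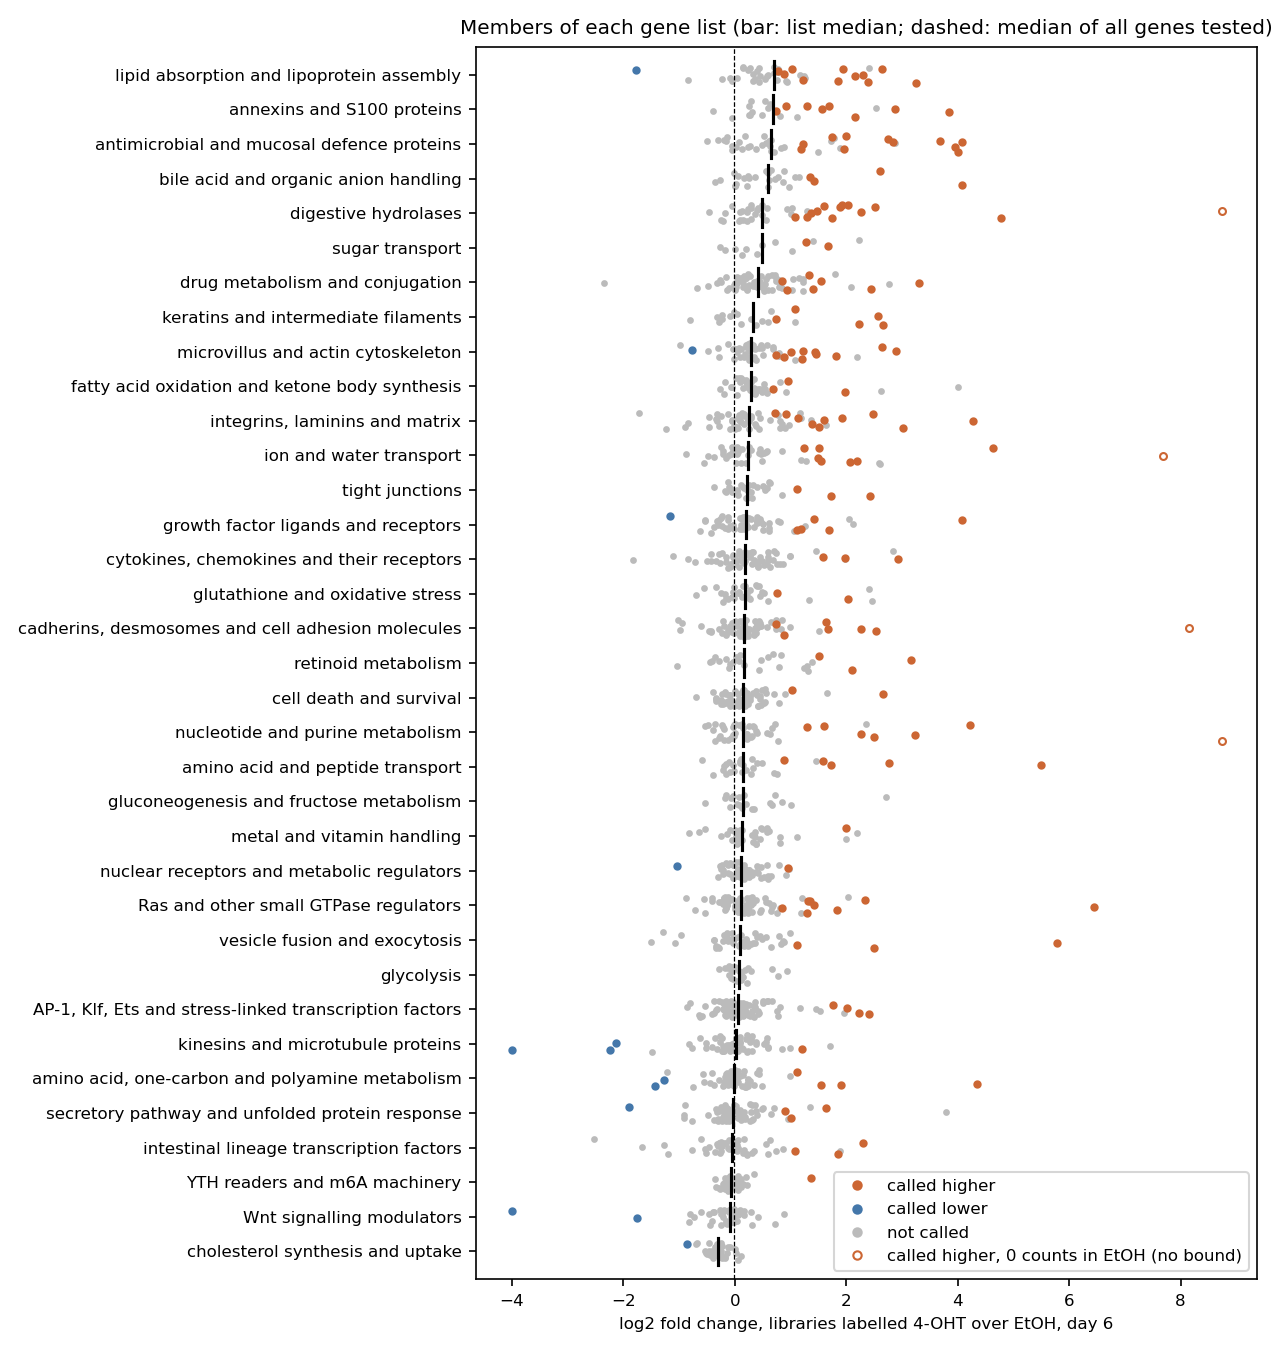
Each row is a gene list and each point a tested member, placed by its day 6 log2 fold change (libraries labelled 4-OHT over EtOH); the bar is the list median and the dashed line the median of all genes. Orange points are called higher, open orange points called higher with 0 counts in EtOH, blue called lower and grey not called. Medians run from -0.30 for cholesterol synthesis to 0.70 for lipid absorption, and most lists have members on both sides of 0.

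Several housekeeping groups held no call by edgeR. Of 85 cytosolic ribosomal protein genes 1 had an unadjusted p under 0.05, and 83 lay below 0 with a median of -0.24, which was -0.04 without EtOH library 1 and -0.40 without EtOH library 2. The 49 NADH dehydrogenase subunits had a median of -0.10, the 34 subunits of ATP synthase and cytochrome oxidase -0.09, the 39 proteasome subunits -0.11 and the 61 heat shock proteins 0.03, with 0, 0, 1 and 2 genes at an unadjusted p under 0.05. The 14 mitochondrially encoded genes had a median of 0.13, with 3 at that level. The 37 G protein-coupled receptors named Gpr or Adgr gave 0 calls and 2 at that level. In the list for the secretory pathway 3 of 67 were higher and 1 lower, with a median of -0.04. The 3 were the glycan-building enzymes St3gal4 (89.1 and 79.8 CPM against 281 and 244 CPM, 1.63 ± 0.17), B3gnt7 (1.01 ± 0.19) and Gcnt3 (0.89 ± 0.16), none of which is a chaperone. Hspa5, the main chaperone of the endoplasmic reticulum, had 822 and 619 CPM against 745 and 797 CPM (0.10 ± 0.19). Of the exon bases of St3gal4 30.4% are shared, and of Hspa5 44.2%. Cell death and survival had 2 of 64 called (3.12%, against 2.51% of all genes). These were Krt20 and Cdkn2b, an inhibitor of cell cycle kinases (1.02 ± 0.21). Bax, which promotes cell death, had 41.9 and 39.2 CPM against 41.0 and 50.4 CPM. Among 41 genes of the m6A machinery 28 lay below 0 with a median of -0.07. The 1 call (2.44%, against 2.51% of all genes) was Ythdf2. Its relatives Ythdf1 (81.8 and 89.3 CPM against 91.9 and 86.8 CPM) and Ythdf3 (95.9 and 146 CPM against 144 and 138 CPM) did not pass. The ribosomal proteins had 1 call without 4-OHT library 2. NADH dehydrogenase had 1 call without 4-OHT library 2, and the median ran from -0.26 to 0.10 with single libraries left out. ATP synthase and oxidase had a median that ran from -0.24 to 0.10 with single libraries left out. The proteasome had 1 call without EtOH library 2 and 1 with the day term, and the median ran from -0.26 to 0.06 with single libraries left out. Mitochondrially encoded genes had 1 call by DESeq2, and the median ran from -0.03 to 0.35 with single libraries left out. Heat shock genes had a median that ran from -0.02 to 0.07 with single libraries left out. The secretory list had a median that ran from -0.12 to 0.06 with single libraries left out. Cell death genes had 1 call without EtOH library 1, 5 without EtOH library 2, 1 without 4-OHT library 1, 1 without 4-OHT library 2 and 7 with the day term. The m6A list had a median that ran from -0.11 to 0.02 with single libraries left out. Gcnt3 (0.84) and Cdkn2b (1.02) did not pass without EtOH library 1. Cdkn2b (1.01) did not pass without EtOH library 2. Gcnt3 (0.77) and Cdkn2b (1.14) did not pass without 4-OHT library 1. B3gnt7 (0.91) and Cdkn2b (0.89) did not pass without 4-OHT library 2.

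The 33 genes that were lower ran from -0.76 to -4.26, and 13 of them had a mean under 5 CPM. Plcb2 (chr2:118537979-118559111), a phospholipase that acts in taste and tuft cell signalling, had 31 and 25 counts in EtOH and 3 counts over both libraries labelled 4-OHT, a ratio of 20.8 (95% exact interval 6.76 to 104, counting error only). Kif26b (chr1:178356690-178766765), a kinesin-like protein named in the title of the series, had 3.79 and 4.31 CPM against 0.415 and 0.053 CPM (-4.01 ± 0.61). Dclk1, a microtubule-linked kinase that marks tuft cells, had 6.21 and 3.74 CPM against 1.43 and 0.636 CPM (-2.24 ± 0.48). Hemgn had 4.74 and 2.82 CPM against 0.967 and 0.424 CPM (-2.41 ± 0.52). Irag2 had 3.05 and 2.82 CPM against 0.322 and 0.530 CPM (-2.79 ± 0.52). Plcb2, Dclk1, Hemgn and Irag2 fell while the summed tuft cell markers were also lower, and the part of tuft cells in these calls was not tested. Dclk1 is itself in that sum, and it was the 1 tuft cell marker called. Plcb2 (-4.17), Dclk1 (-1.83), Hemgn (-1.98) and Irag2 (-2.72) did not pass without EtOH library 1. Irag2 (-2.84) did not pass without EtOH library 2. Irag2 (-2.45) did not pass without 4-OHT library 1. Dclk1 (-1.8) and Hemgn (-1.96) did not pass without 4-OHT library 2. Kif26b was at -6.08, Dclk1 was at -2.96 and Hemgn was at -3.14 without 4-OHT library 1. Kif26b was at -3.26 without 4-OHT library 2.

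Several of the lower genes, though not all of those in this paragraph, encode proteins that act at the cell surface or outside the cell. Nrp1, a co-receptor for semaphorins and vascular endothelial growth factor, had 8.16 and 8.16 CPM in EtOH and 1.84 and 1.49 CPM in the libraries labelled 4-OHT (-2.28 ± 0.34). Sfrp5, a secreted protein that binds Wnt ligands, had 15.4 and 10.3 CPM against 3.50 and 4.08 CPM (-1.76 ± 0.31). Fam20c, the kinase that phosphorylates secreted proteins, had 23.9 and 25.8 CPM against 6.59 and 6.74 CPM (-1.90 ± 0.23). The groups did not overlap in these 3 genes, as in every called gene and in 38.9% of all genes tested. Sfrp5 and Kif26b were the 2 calls among 49 Wnt modulators (4.08%, against 2.51% of all genes). Of these 49, 33 lay below 0, and the list median was -0.09, close to that of all genes. Lipg, endothelial lipase, had 57.3 and 46.4 CPM against 22.3 and 21.8 CPM (-1.23 ± 0.19). Papln, a matrix protein, had 143 and 146 CPM against 76.9 and 60.1 CPM (-1.08 ± 0.18), with 18.9% of its exon bases shared with Numb. Clstn3 (-2.97 ± 0.61) and Neu2, a sialidase (-2.97 ± 0.50), were low in all libraries. Zan, zonadhesin, had 38.1 and 44.1 CPM against 17.5 and 17.4 CPM (-1.24 ± 0.20). The Wnt list had 1 call without EtOH library 1. Nrp1 (-2.28), Sfrp5 (-1.44), Clstn3 (-2.77) and Neu2 (-3.08) did not pass without EtOH library 1. Clstn3 (-3.14) and Neu2 (-2.86) did not pass without EtOH library 2. Clstn3 (-2.27) did not pass without 4-OHT library 1. Papln (-0.91) did not pass without 4-OHT library 2. Clstn3 was at -4.15 and Neu2 was at -3.58 without 4-OHT library 2.

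Transport and the cytoskeleton were represented among the lower genes too. Slc14a1, a urea channel, had 7.79 and 3.33 CPM in EtOH and 1.06 and 0.477 CPM in the libraries labelled 4-OHT (-2.83 ± 0.55). Slc25a27, a mitochondrial carrier, had 4.79 and 5.23 CPM against 1.57 and 1.70 CPM (-1.62 ± 0.36). Both carriers were at 7.79 CPM or less in every library. Kcnf1, a potassium channel subunit, had 61.4 and 71.2 CPM against 29.0 and 32.6 CPM (-1.11 ± 0.18). Kif12, a kinesin, had 55.0 and 28.0 CPM against 11.6 and 7.32 CPM (-2.13 ± 0.34). Of the 57 kinesins and microtubule proteins 3 were lower (Kif26b, Kif12 and Dclk1) and 1 was higher, Tubb2a (1.21 ± 0.24), of whose exon bases 89.2% overlap Bphl. Mpp3, a scaffold of cell polarity, was at -1.06 ± 0.19, Klhl23 at -1.36 ± 0.28, Cbx6, of the Polycomb proteins, at -0.91 ± 0.18 and Ctrb1, chymotrypsinogen, at -2.28 ± 0.51. Olfm4, a secreted glycoprotein that marks intestinal stem cells, was the most abundant, at 3284 and 2225 CPM against 1307 and 975 CPM (-1.27 ± 0.26). The remaining 4 were 6330403L08Rik (-1.57 ± 0.24), Gm34567 (-1.27 ± 0.28), Gm43305 (-0.76 ± 0.16) and Gm44985 (-1.55 ± 0.35). Of the exon bases of 6330403L08Rik 46.2% overlap Pdgfa, which falls with it, and the reads of the 2 cannot be told apart there without strand. Of the 33, 10 were still called without EtOH library 1, and 6 were called under every alternative that tested them. Kinesins and microtubule genes had 1 call without EtOH library 1, and the median ran from -0.12 to 0.10 with single libraries left out. Slc14a1 (-2.08), Slc25a27 (-1.68), Kif12 (-1.57), Tubb2a (1.18), Mpp3 (-0.96), Cbx6 (-0.93), Ctrb1 (-1.77), Olfm4 (-0.96), Gm34567 (-1.02), Gm43305 (-0.7) and Gm44985 (-1.39) did not pass without EtOH library 1. Slc25a27 (-1.55), Tubb2a (1.23), Klhl23 (-0.89) and Gm44985 (-1.69) did not pass without EtOH library 2. Slc25a27 (-1.56), Kcnf1 (-1.02), Tubb2a (1.13), Mpp3 (-1.12), Klhl23 (-1.1), Cbx6 (-1.1), Ctrb1 (-1.89), Gm34567 (-1.46), Gm43305 (-0.67) and Gm44985 (-1.63) did not pass without 4-OHT library 1. Slc25a27 (-1.67), Mpp3 (-1.0), Cbx6 (-0.74), Olfm4 (-1.07), Gm34567 (-1.1), Gm43305 (-0.86) and Gm44985 (-1.47) did not pass without 4-OHT library 2. Slc14a1 was at -3.53 without 4-OHT library 1.

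**Figure D4:**
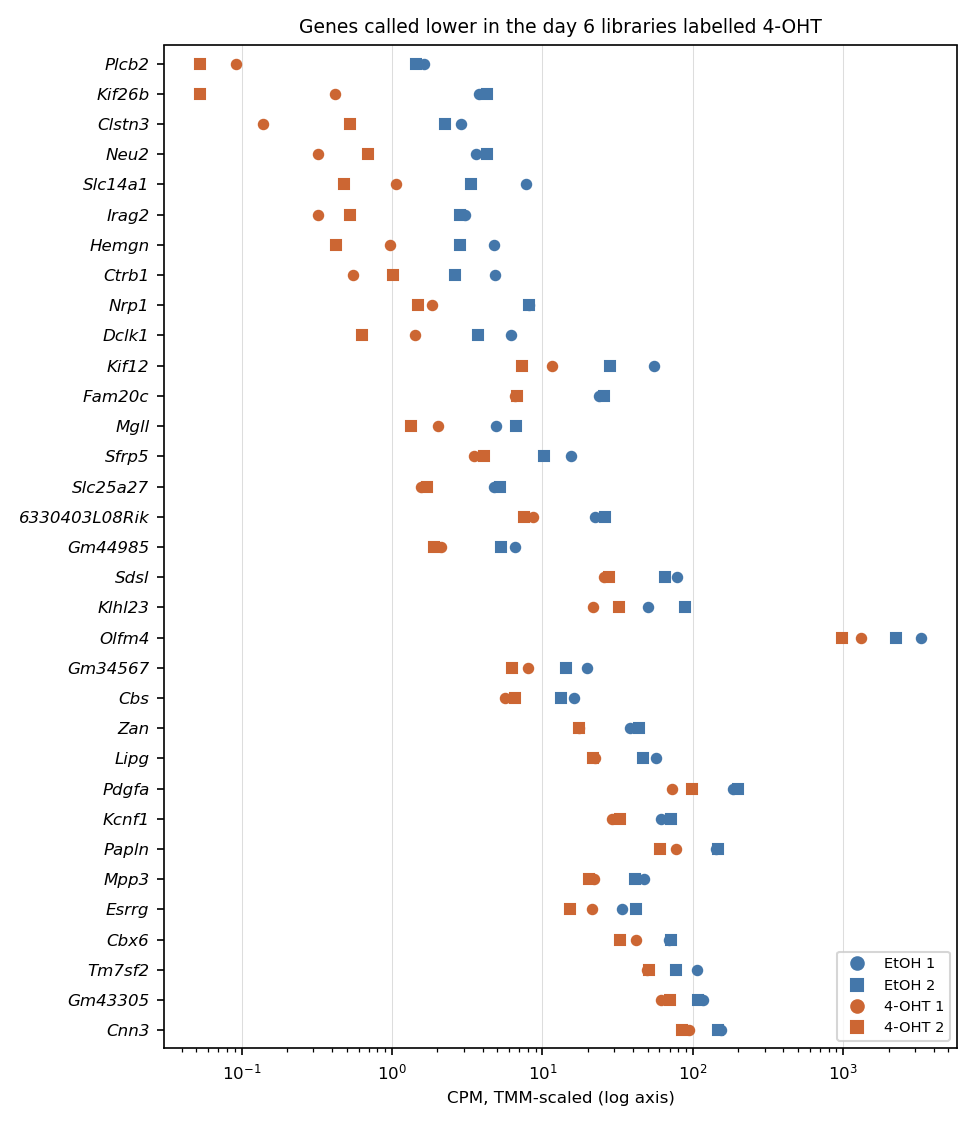
Each row is 1 of the 33 genes called lower, ordered by log2 fold change, and each mark a day 6 library with its TMM-scaled CPM on a log axis (blue EtOH, orange labelled 4-OHT). Both orange marks lie to the left of both blue marks in every row, since the groups did not overlap in any called gene. Olfm4 lies far to the right of the others.

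At day 4 the single library labelled 4-OHT was compared with the single EtOH library, with no replicate and so no test. These 2 libraries held 14345379 and 19364354 gene counts, with 25% and 26.7% of their totals in unassigned reads. Genes with counts numbered 24195 and 26521, against 19522 to 20622 at day 6, so the libraries of the 2 days differ in more than the day. Of the 320 genes called higher at day 6, 9 had a day 4 value below 0, and the median at day 4 was 1.38. Of the 33 called lower 0 had a value above 0, and their median was -1.07, while all genes tested had a median of 0.00. A difference of at least 2-fold in the same direction was present at day 4 for 219 of the 320 and 18 of the 33. All of the 30 largest rises were above 0 at day 4, and 29 were at least 2-fold higher. The share of all genes tested with such a day 4 difference was not counted, so these counts have no background beside them. Rgl3 was at 6.0 at day 4, Syt8 at 5.22, Sardh at 4.38 and Kif26b at -3.68. Ythdf2 was at 1.14, also higher in the library labelled 4-OHT. Clca4a was the exception among the large rises, with 0.23 at day 4 against 4.55 at day 6. Among the hydrolases and carriers Sis was at 0.05, Ces2c at 0.21, Slc6a19 at 0.44 and Slc51a at 0.46. Car4, Dsg3, Prss30 and 1810065E05Rik were among the 9 with the opposite sign at day 4. Few reads underlie this for Car4 (7 counts in EtOH, 1 in the other library) and Dsg3 (18 and 9). Plcb2 (-0.01), Dclk1 (-0.01), Cbs (-0.01), Neu2 (-0.08) and Ctrb1 (-0.12) were close to level then. The difference between the day 6 and the day 4 fold change was itself tested over all 6 libraries. The spread of the day 6 pairs stood in for that at day 4. This difference was called for 0 of 14060 genes by edgeR (228 at an unadjusted p under 0.05, smallest adjusted p 0.207). No gene was thus shown to have a different fold change at the 2 days, and levels at the 2 days were not compared. With both days in 1 fit and a term for day, 156 of the 169 named genes called at day 6 passed and 4 were not tested. Among the 9 that did not pass were Sis, Slc38a3, Dsg3, Cbs, Neu2, Dclk1, Ctrb1 and 1810065E05Rik.

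**Figure D5:**
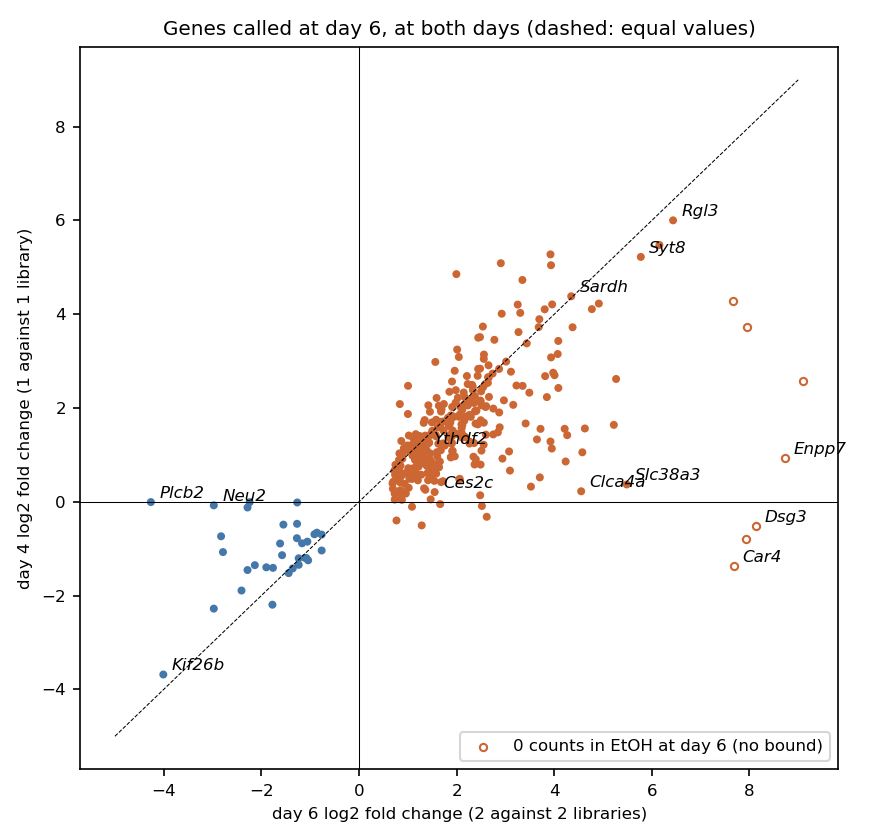
Each point is a gene called at day 6, with its log2 fold change at day 6 (2 against 2 libraries) and at day 4 (1 against 1 library); the dashed line marks equal values and open points had 0 counts in the day 6 EtOH libraries. Rgl3, Syt8, Sardh and Kif26b lie near the line, while Plcb2, Neu2, Clca4a and Slc38a3 lie near 0 at day 4.

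RefSeq promoter sequences were available for 10132 of the genes tested, and the 250 bases before the first listed start of each were searched on both strands. The windows of the 3 largest rises that had an entry and the 2 largest falls are shown, 5′ to 3′ on the gene's strand, with matches to the searched motifs in capitals. The motif searched for AP-1 factors was TGANTCA, where N is any base. For GATA factors the letters were AGATAA. The CDX homeodomain factors were represented by TTTATNG. For the nuclear receptor HNF4 the search used CAAAGTCCA. TEAD factors were given the letters GGAATG. The last motif was the TATA box, written as TATAAA. Positions are those of the RefSeq table's build, GRCm38.p6, not of mm39.
Rgl3, chr9:21989454-21989703, minus strand: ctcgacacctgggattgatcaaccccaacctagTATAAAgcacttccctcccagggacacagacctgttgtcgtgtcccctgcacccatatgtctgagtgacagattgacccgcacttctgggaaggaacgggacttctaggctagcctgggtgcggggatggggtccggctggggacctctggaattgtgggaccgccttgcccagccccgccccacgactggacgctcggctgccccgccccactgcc
Syt8, chr7:142434600-142434849, plus strand: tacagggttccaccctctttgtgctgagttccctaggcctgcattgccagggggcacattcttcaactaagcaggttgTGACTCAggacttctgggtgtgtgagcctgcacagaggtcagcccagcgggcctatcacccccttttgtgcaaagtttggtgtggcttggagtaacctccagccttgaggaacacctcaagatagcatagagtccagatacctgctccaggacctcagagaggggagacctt
Sardh, chr2:27247304-27247553, minus strand: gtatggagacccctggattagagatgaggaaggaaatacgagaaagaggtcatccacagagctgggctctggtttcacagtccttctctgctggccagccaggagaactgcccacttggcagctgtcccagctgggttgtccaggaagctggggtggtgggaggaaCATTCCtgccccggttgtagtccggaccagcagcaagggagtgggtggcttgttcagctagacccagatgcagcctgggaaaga
Plcb2, chr2:118728439-118728688, minus strand: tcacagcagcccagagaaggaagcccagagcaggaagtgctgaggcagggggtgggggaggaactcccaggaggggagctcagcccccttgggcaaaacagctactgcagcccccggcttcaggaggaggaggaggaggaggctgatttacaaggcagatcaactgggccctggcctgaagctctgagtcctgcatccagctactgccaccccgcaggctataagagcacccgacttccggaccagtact
Kif26b, chr1:178528875-178529124, plus strand: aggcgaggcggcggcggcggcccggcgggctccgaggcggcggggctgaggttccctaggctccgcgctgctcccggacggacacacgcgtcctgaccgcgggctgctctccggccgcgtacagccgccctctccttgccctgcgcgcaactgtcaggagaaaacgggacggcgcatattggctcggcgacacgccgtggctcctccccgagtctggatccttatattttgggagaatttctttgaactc
The Rgl3 window holds TATA letters 217 bases before the start, that of Syt8 an AP-1 match and that of Sardh a TEAD match on the opposite strand, while those of Plcb2 and Kif26b hold none of the 6. No motif was shared by the 3 rises. A match is a description of the letters, not evidence that a factor binds.

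Across all genes AP-1 letters were found in 4.4% of the 10132 windows, in 13.6% of the 235 windows of genes called higher and in 4% (1) of the 25 of genes called lower. TATA letters were in 6.7%, 17.0% and 16%, CDX letters in 6.4%, 14.5% and 12%, and GATA letters in 6.0%, 10.6% and 8%. TEAD letters were in 10.8%, 12.8% and 16%, and HNF4 letters in 0.4%, 1.3% and 0.0%. Base composition also differed, with a median GC content of 59.6% over all windows and 56.8% over those of genes called higher. Split by GC content into 3 classes of near equal size, AP-1 letters were in 6.5%, 4.7% and 2.0% of all windows (lowest to highest GC) and in 18.3%, 13.3% and 4.2% of those of the genes called higher, with 104, 83 and 48 windows. In the same order TATA letters were in 14%, 4.1% and 2.2% of all windows and in 27.9%, 8.4% and 8.3% of those of the genes called higher. GATA letters were in 13%, 4.1% and 1.2% against 16.3%, 7.2% and 4.2%, and CDX letters in 11.5%, 5.5% and 2.2% against 26.9%, 4.8% and 4.2%. The share among genes called higher was thus the larger in each class for AP-1, TATA and GATA letters, and in the lowest and highest but not the middle class for CDX letters. In the highest class these shares rest on 2 to 4 windows. Of the 32 genes called higher with AP-1 letters, 8 named above are shown with up to 12 bases on each side, the match in capitals, because they come from unrelated groups. They were chosen after their values were seen.
Syt8, chr7:142434666-142434696, plus strand: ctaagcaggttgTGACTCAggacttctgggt
Dhrs9, chr2:69380432-69380461, plus strand: ttgcaataggtgTGACTCActgagagaagt
Il1rn, chr2:24336707-24336737, plus strand: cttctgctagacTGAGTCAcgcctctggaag
Slc10a2, chr8:5105387-5105417, minus strand: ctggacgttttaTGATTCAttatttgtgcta
Cyp3a13, chr5:137921692-137921722, minus strand: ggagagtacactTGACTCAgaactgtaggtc
Hpd, chr5:123182844-123182874, minus strand: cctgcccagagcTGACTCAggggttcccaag
Cldn4, chr5:134947074-134947104, minus strand: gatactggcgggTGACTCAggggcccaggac
Srxn1, chr2:152105410-152105440, plus strand: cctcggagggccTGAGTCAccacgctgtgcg
They include a vesicle protein, a retinol dehydrogenase, a cytokine antagonist, a bile acid carrier, a cytochrome P450, an enzyme of tyrosine breakdown, a claudin and an antioxidant enzyme. The start of the match lay 18 bases before the listed start in Dhrs9 and 172 bases before it in Syt8. Cldn4 and Srxn1 each hold a further match that is not shown. Binding of AP-1 was not measured in these samples, and its part in the gene differences was not tested.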

How the data were processed

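Gene expression was measured by RNA-seq of poly-A selected RNA in 6 libraries, and the authors deposited unnormalised read counts per Ensembl gene. Alignment with STAR to mm39 is stated per the submitters' processing notes; the version, annotation release and strand setting are not given in the sources used here. Unassigned reads, in 4 summary lines that held 19.3 to 21.0% of each day 6 file's total, were left out. Symbols came from GENCODE M39 (56323 of 56884 identifiers, 99.96% of counts). Genes were filtered with filterByExpr (minimum count 10) and tested with edgeR 4.0.16 (TMM scaling, quasi-likelihood test, Benjamini-Hochberg over 14066 genes, called at an adjusted p under 0.05) in R 4.3.3; the SE was taken as |log2 fold change|/√F. DESeq2 1.42.0, other scalings and filters, a day term, a replicate block and leaving out each library were alternatives. The code was tested on simulated data. Intervals and floors (3 counts) cover counting error only, since reads carry no molecular identifiers. The 2 libraries of each group differed by more than sampling noise (chi-square per degree of freedom 23.6 and 16.5).

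The samples, 35 gene lists and 37 families were chosen with earlier results of these data known. Named genes were Ythdf2, the first gene of each list, the called members of each list (up to 4 each way) and family (up to 3 each way), all called lower genes and the 30 largest rises among protein-coding genes of at least 5 CPM with groups not overlapping. Of 1931 symbols in the lists 1602 were tested. Not every named family member is described; the deposited counts do not tell overlapping genes apart. Some list members are not reported here.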

Additional observations from a re-analysis of the deposited data

How the results depend on the processing

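Over the 7 alternative fits and the 4 that left out a library, all named called genes that were tested kept their direction. Counts of calls (353, with 320 higher and 33 lower) became 618 (517 and 101) with all 6 libraries and a term for day, and 67 genes were called lower by DESeq2. Leaving out 1 library gave 145 to 456 calls, 131 to 381 higher and 14 to 75 lower, lowest without EtOH library 1. With the replicate block the count was 839 (688 and 151). The labels give the libraries only a replicate number and do not say whether equal numbers mark a pair or a batch. The correlation of the difference between replicates 1 and 2 across the 2 groups was 0.266. The second principal component, with 31.0% of the variance, also separated libraries 1 from libraries 2. A shared batch or pairing is thus possible, and the fit behind the 353 calls holds no term for it. With a library left out, 6 of the 35 list medians, read at 2 decimals, changed sign in at least 1 fit. Not counted among these is the list of AP-1, Klf, Ets and stress-linked factors, with a median of -0.00 without EtOH library 1. The earlier edgeR quasi-likelihood method, added after seeing the data, gave 302 calls.

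Some uncalled genes changed sign. With the term for day this held for Fos (-0.21), Hk2 (0.04) and Hnf4a (-0.04). When single libraries were left out Gclc ran from -0.23 to 0.47, Hk2 from -0.37 to 0.13, Hspa5 from -0.09 to 0.32, Lypd8 from -0.36 to 0.20, Mat2a from -0.48 to 0.28 and Rgl1 from -2.02 to 0.06. The cause was not tested. With 2 libraries a group and 1 CPM at 17 to 22 counts, small differences and low genes are resolved poorly.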

Other observations

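Of the 353 genes called at day 6, 156 belonged to none of the lists or families. Some called genes outside the lists rested on almost no EtOH reads, and they are given here as counts, chosen after their values were seen. F10, coagulation factor X, had 0 counts in EtOH and 63 and 81 in the libraries labelled 4-OHT, at least 43.1-fold higher against a floor of 3 counts over the group. Aspa, which splits N-acetylaspartate, had 0 counts against 39 and 25, at least 19.1-fold higher. Il5ra, the interleukin-5 receptor chain, had 3 counts over both EtOH libraries and 29 and 18 in the others, a ratio of 14.1 (95% exact interval 4.53 to 70.6). Zmat4, a zinc finger gene, had 3 counts against 24 and 43, a ratio of 20 (6.57 to 99.6). The intervals cover counting error only.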
